A study of Mus musculus with 8 samples.

Results

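Expression of 45 genes that control pre-mRNA splicing was followed in the mouse hypothalamus after 2 hours of low oxygen. They are 7 kinases of splicing factors, 12 SR and TRA2 proteins, 9 RBM, LUC7-like and speckle proteins, 3 proteins of the TDP-43 and FET group, 10 hnRNPs, and 4 paraspeckle proteins and DEAD-box helicases. The genes were listed by name and matched by symbol to 45 of the 55487 Ensembl genes in the deposited count table. The list was drawn up with earlier hypoxia against normoxia results of these libraries known. The values of its members in that contrast are therefore given as a description, and no test of the list was made. No threshold on a value was part of the choice.

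The hypoxia group was 4 C57BL/6J mice placed in a chamber at 7% oxygen, the rest nitrogen, for 2 hours. The other 4 C57BL/6J mice were kept in normal conditions, labelled as 21% oxygen for 2 hours (normoxia). No mouse carried a transgene or received a drug, as far as the labels say, and the labels give no age. Polyadenylated RNA was sequenced from 1 hypothalamus library per mouse in a series on how hypoxia alters glucocorticoid receptor function, and the series' design describes the 4 mice of a group as biological replicates.

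Splicing removes introns from pre-mRNA, and the choice of splice sites depends on proteins that bind the exons and introns. SR proteins carry a domain rich in arginine and serine, bind exonic enhancers and usually favour the use of a nearby splice site, while hnRNPs often oppose it. SRPK kinases phosphorylate SR proteins in the cytoplasm and so bring them into the nucleus, where CLK kinases phosphorylate them further and release them from nuclear speckles. Many of these genes control their own output through retained introns or through exons that lead to decay of the mRNA. Counts per gene do not separate such transcripts from productive mRNA.

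The libraries held 16994473 to 21694383 counts, and the members had 548 to 22296 raw counts in a library, so that all 45 passed the filter on low counts. All 15 hypothalamic markers looked at, among them Avp, Oxt, Hcrt and Pmch, were detected in each library, with summed levels of 880 to 1015 CPM (counts divided by the TMM-adjusted library size) in hypoxia and 566 to 1035 CPM in normoxia. Normoxia replicate 2 stood apart, with the lowest hypothalamic sum (566 CPM). Its 8 cortex and hippocampus markers summed to 739 CPM, against 187 to 241 CPM in the hypoxia libraries and 144 to 216 CPM in the other normoxia libraries. Its 7 pituitary markers summed to 80.2 CPM and those of hypoxia replicate 4 to 42.4 CPM, with 0.193 to 9.72 CPM in the other 6 libraries and Lhb at 0 in all 8. Oligodendrocyte markers summed to 6593 to 9751 CPM in hypoxia and 6384 to 11350 CPM in normoxia, and striatal markers to 589 to 972 CPM in hypoxia and 335 to 928 CPM in normoxia. Normoxia replicate 1 had the highest oligodendrocyte sum and the lowest striatal sum. Its 7 thalamus markers summed to 662 CPM, against 381 to 479 CPM in hypoxia and 427 to 445 CPM in the other normoxia libraries. The 6 endothelial markers summed to 206 to 238 CPM in hypoxia and 221 to 269 CPM in normoxia. Of these, Slco1a4 (36.9 to 47.4 CPM in hypoxia, 51.6 to 63.6 CPM in normoxia) and Cldn5 (24.3 to 34.6 CPM in hypoxia, 36.7 to 40.6 CPM in normoxia) were lower in hypoxia without overlap, the direction of most members, while Pecam1, Flt1, Kdr and Tek overlapped. Among the other marker lists, the groups did not overlap in 2 astrocyte markers, Gja1 (lower in hypoxia) and Aldh1l1 (higher in hypoxia). The part of these tissues and cell types in the results was not tested. The level of the members moved with normoxia replicate 2 and hypoxia replicate 4. Normoxia replicate 2 was the highest normoxia library for 39 of the 45 members, where it was the highest for 35.2% of all genes tested. Hypoxia replicate 4 was the highest hypoxia library for 31 of the 45, where it was the highest for 28.8% of all genes tested. Some results are therefore also given without normoxia replicate 2 alone or without both libraries, and not every member has such a value here.

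After 2 hours of hypoxia, the transcripts of the CLK kinases Clk1 and Clk4 and of Rbm5 fell, and the other 42 members were not called. Tra2a, an SR-like protein, had a log2 change as large as that of Rbm5 with a wider spread (−0.43 each). A gene is called where its Benjamini-Hochberg adjusted p, over the 17047 genes tested with edgeR's quasi-likelihood method, is under 0.05. Of those 17047 genes, 1.23% were called lower and 0.915% higher, and with scaling by total counts only the split was 342 lower to 146 higher genes in place of 210 to 156. No member was called higher by edgeR, where 2 members were higher at an unadjusted p under 0.05 (7.63% of all genes tested were) and 16 were lower (11.7% were). DESeq2 called 8 members lower and 0 higher, where it called 3.68% of all genes lower and 2.22% higher. With total counts only, 5 members were called lower (2.01% of all genes tested were). In bulk tissue, fewer cells of a type and less RNA per cell cannot be told apart. Since the list was drawn up with this contrast known, nothing is read from its count.

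The members had a median log2 change of −0.09, against −0.01 over all genes tested, and 35 of the 45 had a negative change, as did 51.8% of all genes tested. In 14 members the hypoxia libraries all lay below the normoxia libraries, and in 4 they all lay above, where 7.75% and 5.69% of all genes did so. Without normoxia replicate 2, 28 of the 45 had a negative change and the median was −0.04. Without both normoxia replicate 2 and hypoxia replicate 4, 29 of the 45 did and the median was −0.06. The changes were small for most members, with 40 of the 45 under 0.25 on the log2 scale in either direction. By role, the median log2 change was −0.23 for the kinases, −0.12 for the RBM, LUC7-like and speckle proteins, −0.11 for the SR and TRA2 proteins, −0.05 for TDP-43 and the FET proteins, −0.04 for the paraspeckle proteins and helicases and −0.03 for the hnRNPs. Without normoxia replicate 2, the medians of the hnRNPs (0.03), of the paraspeckle proteins and helicases (0.03) and of TDP-43 and the FET proteins (0.0086) were above 0, while that of the kinases was −0.23. Leaving out both libraries gave 0.02, 0.01 and −0.01 for these roles, in the same order, and −0.28 for the kinases.

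**Figure D1:**
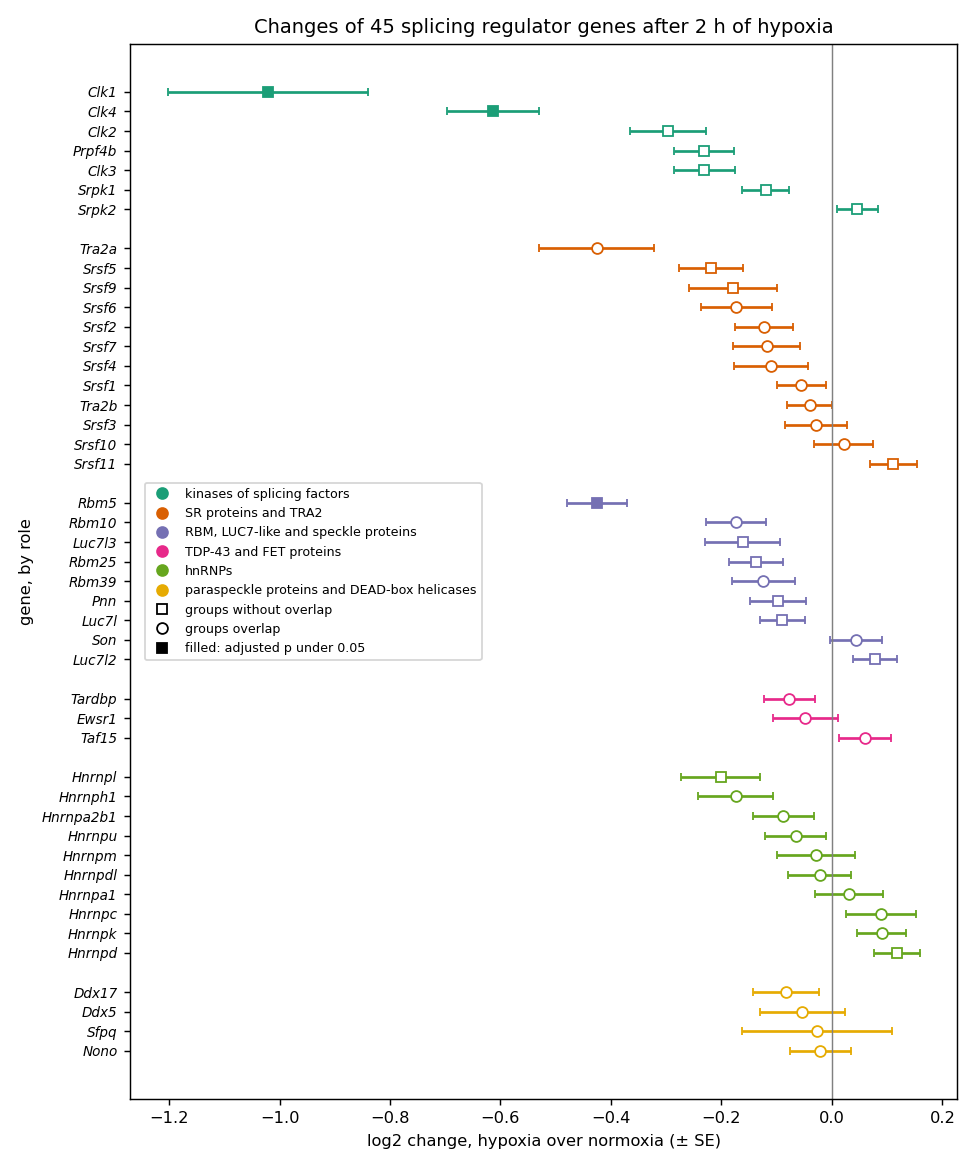
Log2 change of each of the 45 members, hypoxia over normoxia, with its SE, grouped by role (colour). Filled symbols have an adjusted p under 0.05 over all genes tested and squares mark members whose groups did not overlap. Clk1 (−1.02), Clk4 (−0.61) and Rbm5 (−0.43) are filled, and most other members lie between −0.25 and 0.12.

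Clk1 encodes a kinase with dual specificity that phosphorylates SR proteins in the nucleus, and it lies on chromosome 1 (chr1:58410189-58424066, mm10, minus strand; ENSMUSG00000026034). Clk1 was at 60.7, 56.0, 60.6 and 102 CPM in the 4 hypoxia libraries and at 134, 164, 140 and 129 CPM in the 4 normoxia libraries. The groups did not overlap, and hypoxia replicate 4 lay between the other hypoxia libraries and the normoxia libraries. Clk1 averaged 69.9 ± 21.7 CPM in hypoxia and 142 ± 15.7 CPM in normoxia (SD, n = 4 each), and it fell by 50.7%, a log2 change of −1.02 ± 0.18 (SE). This was the largest change among the members.

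Clk4 encodes the nearest relative of Clk1 and lies on chromosome 11 (chr11:51261730-51281766, mm10, plus strand; ENSMUSG00000020385). Clk4 was at 45.7, 47.2, 49.4 and 60.0 CPM in hypoxia and at 74.3, 80.9, 79.1 and 75.2 CPM in normoxia. Here too the groups did not overlap and hypoxia replicate 4 was the nearest to normoxia. Clk4 fell by 34.7%, with means of 50.5 ± 6.46 CPM in hypoxia and 77.4 ± 3.13 CPM in normoxia (SD, n = 4 each) and a log2 change of −0.61 ± 0.08 (SE). No stretch of at least 100 bases at 97% identity or more linked a transcript of Clk1 or Clk4 with a transcript of another gene, apart from genes that overlap them.

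The other CLK kinases lay lower in hypoxia by less and were not called by edgeR. Clk2 was at 29.4, 29.2, 30.8 and 31.0 CPM in hypoxia and at 32.7, 39.7, 37.5 and 38.1 CPM in normoxia, a log2 change of −0.30 ± 0.07 (SE). Clk3 ranged from 67.0 to 75.9 CPM in hypoxia and from 77.3 to 84.6 CPM in normoxia, a log2 change of −0.23 ± 0.06 (SE), and its exons overlap those of Edc3 on the opposite strand. Prpf4b, a kinase of spliceosome assembly, was at 129, 125, 128 and 144 CPM in hypoxia and at 151, 161, 155 and 149 CPM in normoxia. The groups did not overlap in Clk2, Clk3 or Prpf4b, and Prpf4b had a log2 change of −0.23 ± 0.05 (SE). The SRPK kinases, which act in the cytoplasm, differed least. Srpk1 had a log2 change of −0.12 ± 0.04 (SE), with 69.4 to 72.6 CPM in hypoxia and 73.9 to 80.2 CPM in normoxia, and it shares near-identical stretches with 7 other genes. Srpk2 had a log2 change of 0.05 ± 0.04 (SE), with 256 to 260 CPM in hypoxia and 243 to 254 CPM in normoxia. It shares near-identical stretches with 3 other genes, and its exons overlap those of Kmt2e on the opposite strand. In 6 of the 7 kinases the hypoxia libraries all lay below the normoxia libraries, and in Srpk2 they all lay above them. DESeq2 called 5 of the 7 lower (Clk1, Clk2, Clk3, Clk4 and Prpf4b). Of all genes tested, 7.75% lay below without overlap and 5.69% above, and DESeq2 called 3.68% lower.

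**Figure D2:**
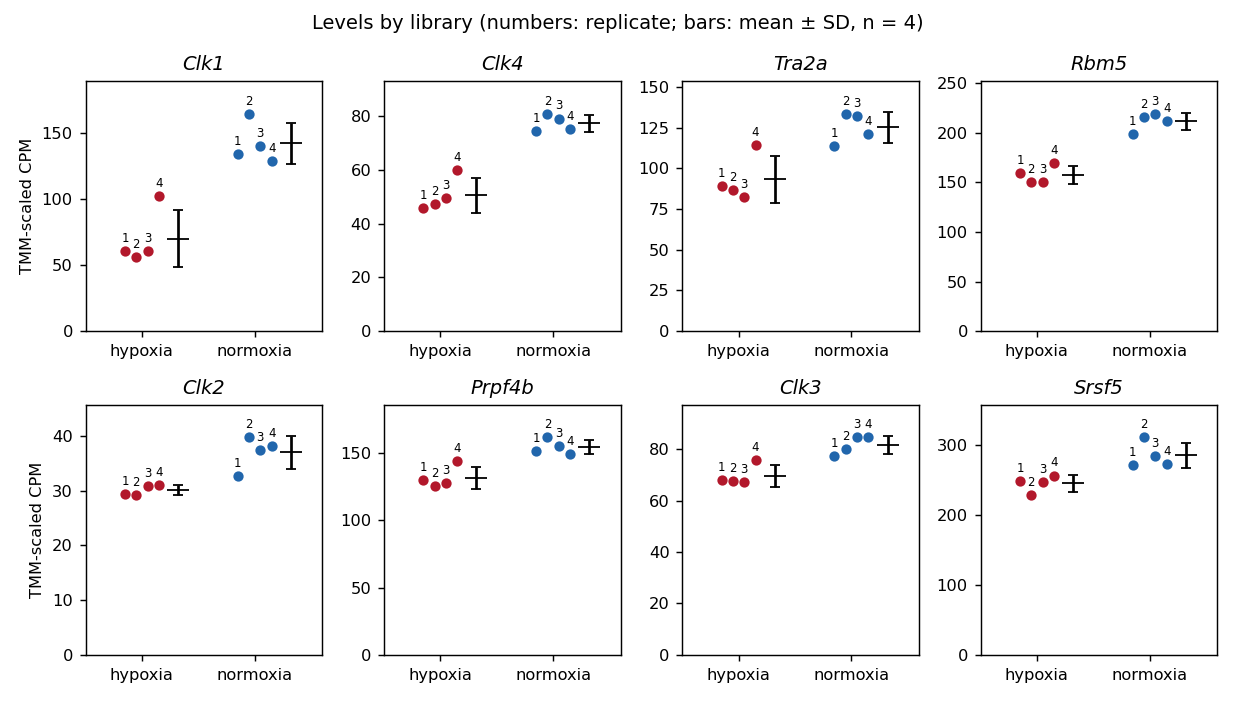
TMM-scaled CPM in each library of the 8 members with the largest absolute log2 change, hypoxia on the left and normoxia on the right of each panel, with replicate numbers and, in black, mean ± SD (n = 4 each). In all 8 panels hypoxia replicate 4 is the highest hypoxia library, at 102 CPM in Clk1 against 56.0 to 60.7 CPM in the other hypoxia libraries.

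Clk1 and Clk4 stayed lower in hypoxia in each fit with libraries left out, but their calls did not all hold. With each library left out in turn, the log2 change of Clk1 ran from −1.26 to −0.93 and that of Clk4 from −0.71 to −0.57. Clk1 was called without hypoxia replicate 4 or normoxia replicate 2 and in none of the other 6 fits. Clk4 was called without hypoxia replicate 4, normoxia replicate 1 or normoxia replicate 2 and in none of the other 5. Without both normoxia replicate 2 and hypoxia replicate 4, the log2 changes were −1.18 for Clk1 and −0.68 for Clk4, and 8 members were called lower and 0 higher, where 4.31% of all genes were called lower and 2.66% higher. These 8 were Clk1, Clk3, Clk4, Prpf4b, Rbm5, Rbm10, Srsf5 and Tra2a. Leaving out hypoxia replicate 4 alone gave 7 members called lower (2.65% of all genes tested), and leaving out normoxia replicate 2 alone gave 4 (2% of all genes tested). The fits that left out 1 of the other libraries called few genes of any kind. They gave 2 members lower without normoxia replicate 1 (0.0464% of all genes tested) and 1 without normoxia replicate 3 (0.0232%). No member was called without normoxia replicate 4 (0.0174%) or without hypoxia replicate 1, 2 or 3 (0.0116% each).

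RefSeq promoter windows on GRCm38.p6 were at hand for 43 of the 45 members, not for Clk1 or Luc7l. Of the 5 members with the largest absolute log2 change, the 4 with a window are shown. Each is the longest stretch without a base of an annotated exon within the 250 bases before the start. Capitals mark, on either strand, the core of the hypoxia response element in its A form (ACGTG) and in its G form (GCGTG), the half-site of the glucocorticoid receptor (TGTTCT) and the cyclic AMP response element (TGACGTCA). On the reverse strand the half-site reads AGAACA and the G form reads CACGC. The run CACGTG holds the A form on both strands. The Clk4 stretch is chr11:51263047-51263113 (plus strand), that of Rbm5 chr9:107771003-107771252 (minus strand), that of Tra2a chr6:49264053-49264302 (minus strand) and that of Clk2 chr3:89164545-89164794 (plus strand).
Clk4: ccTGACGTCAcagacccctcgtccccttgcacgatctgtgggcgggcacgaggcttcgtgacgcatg
Rbm5: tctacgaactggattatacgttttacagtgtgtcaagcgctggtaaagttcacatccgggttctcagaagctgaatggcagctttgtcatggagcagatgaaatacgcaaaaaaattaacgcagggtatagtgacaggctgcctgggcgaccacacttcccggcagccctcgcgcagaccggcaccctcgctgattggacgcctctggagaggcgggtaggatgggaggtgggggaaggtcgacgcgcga
Tra2a: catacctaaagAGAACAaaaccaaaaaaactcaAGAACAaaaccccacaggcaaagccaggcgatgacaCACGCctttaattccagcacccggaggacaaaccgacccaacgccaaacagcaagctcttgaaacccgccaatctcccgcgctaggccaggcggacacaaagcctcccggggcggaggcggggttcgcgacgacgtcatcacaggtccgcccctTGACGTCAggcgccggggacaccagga
Clk2: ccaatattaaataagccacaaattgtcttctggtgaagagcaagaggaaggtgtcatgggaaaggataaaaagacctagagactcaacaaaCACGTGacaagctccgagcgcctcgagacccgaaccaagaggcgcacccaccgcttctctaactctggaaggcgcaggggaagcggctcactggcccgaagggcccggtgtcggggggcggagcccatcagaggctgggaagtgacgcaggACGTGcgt

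Clk4 held TGACGTCA with its first base 65 bases before the start and Tra2a held it 27 bases before the start. They were the only 2 of 57 member windows with it (3.51%), where 1.55% of all 32851 windows of the same 250 bases held it. Clk2 held the A form 8 bases before the start and, within a CACGTG, 159 bases before it, and the Rbm5 stretch held none of the marked motifs. The printed Clk4 stretch is only a part of its window of 250 bases. Further from the start, that window also held 2 matches to the G form and 1 to the glucocorticoid receptor half-site. These Clk4 matches are not printed above but count in the shares that follow. The A form was in 24.6% of the member windows and in 16.6% of all windows, and the G form in 47.4% of the member windows and in 28.2% of all windows. The glucocorticoid receptor half-site was in 10.5% of the member windows and in 16.1% of all windows. The member windows were rich in CpG, with a median of 23 CpG in 250 bases, against 6 over all windows. A match describes these letters and not a site that is used.

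Among the SR proteins and TRA2 proteins, the splicing enhancer proteins of the list, no member was called by edgeR, with 4 lower and 1 higher at an unadjusted p under 0.05 and 2 called lower by DESeq2. Over all genes tested, 11.7% were lower and 7.63% higher at that p, and DESeq2 called 3.68% lower. Tra2a, which binds GAA-rich exonic enhancers, was at 89.3, 86.7, 82.1 and 115 CPM in hypoxia and at 114, 134, 132 and 121 CPM in normoxia. The groups overlapped through hypoxia replicate 4, which lay above normoxia replicate 1. Tra2a had a log2 change of −0.43 ± 0.10 (SE), and its relative Tra2b had −0.04 ± 0.04 (SE), with 62.5 to 67.5 CPM in hypoxia and 65.6 to 66.7 CPM in normoxia. Without both libraries that stood apart, Tra2a had a log2 change of −0.51.

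Srsf5, an SR protein, was at 248, 229, 247 and 256 CPM in hypoxia and at 272, 311, 285 and 274 CPM in normoxia. The groups did not overlap, and normoxia replicate 2 was the highest library. Srsf5 had a log2 change of −0.22 ± 0.06 (SE), and it has a processed pseudogene, Gm12966, that may share its reads. Srsf9 was at 33.4, 33.3, 32.8 and 33.7 CPM in hypoxia and at 34.6, 44.3, 35.8 and 36.0 CPM in normoxia. The groups lay close together apart from normoxia replicate 2, and the log2 change of Srsf9 was −0.18 ± 0.08 (SE) with all libraries and −0.10 without both that stood apart. Srsf11, an SR-related protein, went the other way, at 216, 216, 222 and 208 CPM in hypoxia and at 192, 203, 198 and 205 CPM in normoxia. Its groups did not overlap, with a log2 change of 0.11 ± 0.04 (SE).

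The remaining SR proteins overlapped between the groups. Their log2 changes ran from −0.17 for Srsf6 to 0.02 for Srsf10, a splicing repressor when it loses phosphate. Srsf1, Srsf2, Srsf3, Srsf4 and Srsf7 lay between these, at −0.06 ± 0.04, −0.12 ± 0.05, −0.03 ± 0.06, −0.11 ± 0.07 and −0.12 ± 0.06 (SE). Under scaling by total counts only, the sign of Srsf10 changed, and without normoxia replicate 2 that of Srsf3 did. Of the 12 SR and TRA2 proteins, 11 were highest within normoxia in replicate 2.

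Rbm5 encodes an RNA-binding protein of the early spliceosome, known in human cells for its effect on the splicing of apoptosis genes, and lies on chromosome 9 (chr9:107740371-107770996, mm10, minus strand; ENSMUSG00000032580). Rbm5 was at 159, 150, 150 and 169 CPM in hypoxia and at 199, 216, 219 and 211 CPM in normoxia. The groups did not overlap, and normoxia replicate 2 lay within the range of its group while hypoxia replicate 4 was the highest of its own. Rbm5 shares near-identical sequence with 1 other gene. Rbm5 fell by 25.5%, with means of 157 ± 9.02 CPM in hypoxia and 211 ± 8.81 CPM in normoxia (SD, n = 4 each) and a log2 change of −0.43 ± 0.05 (SE). Leaving out each library in turn gave −0.46 to −0.40, with a call in 4 of the 8 fits, and the fit without both libraries gave −0.45.

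Rbm10, a relative of Rbm5, was at 59.0, 58.5, 59.6 and 66.8 CPM in hypoxia and at 67.2, 71.2, 70.0 and 66.7 CPM in normoxia. The groups met at hypoxia replicate 4 and normoxia replicate 4, and the log2 change was −0.17 ± 0.05 (SE). Rbm10 overlaps Ndufb11 on the opposite strand. Luc7l3, a protein linked to the U1 particle, was at 194, 195, 204 and 210 CPM in hypoxia and at 213, 256, 214 and 217 CPM in normoxia, a log2 change of −0.16 ± 0.07 (SE). Only normoxia replicate 2 lay far from the rest, and without it the log2 change of Luc7l3 was −0.09. Rbm25 was at 165, 160, 165 and 170 CPM in hypoxia and at 178, 196, 173 and 180 CPM in normoxia, a log2 change of −0.14 ± 0.05 (SE), and its transcripts share near-identical stretches with 48 other genes. Pnn, a speckle protein, was at 102, 104, 104 and 104 CPM in hypoxia and at 104, 121, 108 and 110 CPM in normoxia, a log2 change of −0.10 ± 0.05 (SE). In Pnn the highest hypoxia library and the lowest normoxia library were both at 104 CPM after rounding, and the groups were separate only by less than that rounding.

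The other LUC7-like genes went opposite ways. Luc7l had 144 to 150 CPM in hypoxia and 153 to 162 CPM in normoxia, a log2 change of −0.09 ± 0.04 (SE). Luc7l2 had 254 to 274 CPM in hypoxia and 245 to 252 CPM in normoxia, a log2 change of 0.08 ± 0.04 (SE). It shares near-identical stretches with 5 other genes, and a noncoding gene, Gm26699, overlaps it on the opposite strand. Luc7l and Luc7l2 each had groups that did not overlap. Rbm39, a partner of the splice site factor U2AF, had −0.12 ± 0.06 (SE), and Son, a scaffold of nuclear speckles, had 0.04 ± 0.05 (SE), with groups that overlapped.

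**Figure D3:**
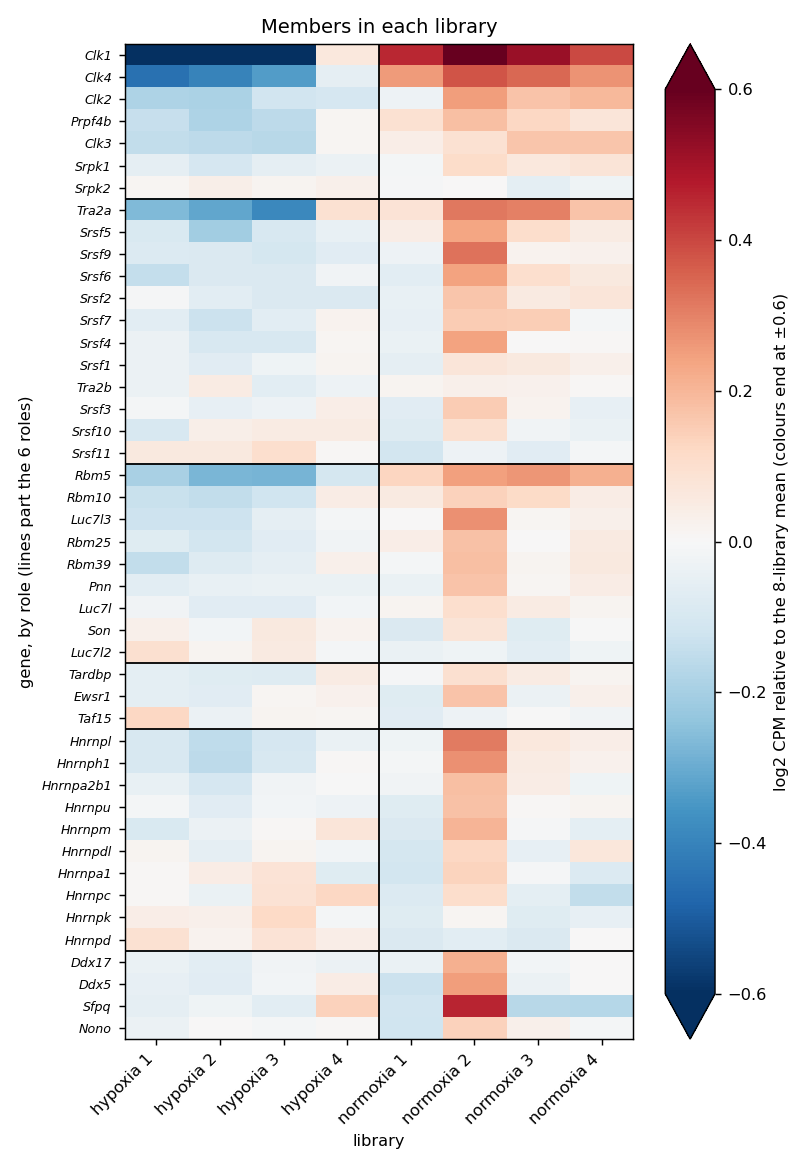
Log2 CPM of each member in each library relative to its mean over the 8 libraries (colour, ending at ±0.6), hypoxia libraries on the left and normoxia libraries on the right, with lines between roles. The blue of hypoxia replicates 1 to 3 is deepest in Clk1, Clk4, Tra2a and Rbm5, and the column of normoxia replicate 2 is red across most roles.

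The TDP-43 and FET proteins bind RNA and are known from neurodegenerative disease. The members here are Tardbp, Ewsr1 and Taf15, and not every FET gene is among them. In these 3 members all groups overlapped and none was called by edgeR or by DESeq2, with 0 at an unadjusted p under 0.05. Tardbp, which encodes TDP-43, was at 245, 243, 242 and 264 CPM in hypoxia and at 254, 273, 264 and 258 CPM in normoxia, a log2 change of −0.08 ± 0.05 (SE). Ewsr1 was at 206, 205, 216 and 218 CPM in hypoxia and at 204, 242, 209 and 219 CPM in normoxia, a log2 change of −0.05 ± 0.06 (SE). Taf15 was at 70.5, 63.3, 65.5 and 65.4 CPM in hypoxia and at 61.9, 63.4, 64.8 and 63.8 CPM in normoxia, a log2 change of 0.06 ± 0.05 (SE). Ewsr1 was highest in normoxia replicate 2, and its log2 change without that library was 0.0086.

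The hnRNPs, which coat pre-mRNA, went both ways and no member was called by edgeR, with 2 lower and 1 higher at an unadjusted p under 0.05 and 0 called by DESeq2. Over all genes tested, 11.7% were lower and 7.63% higher at that p. Hnrnpl, which binds CA repeats, was at 190, 182, 189 and 197 CPM in hypoxia and at 200, 252, 212 and 209 CPM in normoxia, a log2 change of −0.20 ± 0.07 (SE). The groups did not overlap, though hypoxia replicate 4 and normoxia replicate 1 lay close together. Without normoxia replicate 2 the log2 change of Hnrnpl was −0.12. Hnrnph1, which binds runs of G, was at 286, 274, 286 and 307 CPM in hypoxia and at 303, 370, 317 and 311 CPM in normoxia, a log2 change of −0.17 ± 0.07 (SE), and its groups overlapped. The log2 change of Hnrnph1 was −0.10 without normoxia replicate 2. Hnrnpd, also known as AUF1 for its binding to AU-rich mRNA, was the hnRNP with the largest positive change, at 220, 209, 219 and 212 CPM in hypoxia and at 194, 197, 194 and 207 CPM in normoxia. Its groups did not overlap, and the log2 change was 0.12 ± 0.04 (SE). Hnrnpd overlaps Gm17092 on the opposite strand. Its relative Hnrnpdl had −0.02 ± 0.06 (SE).

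The other hnRNPs all had overlapping groups. Hnrnpk and Hnrnpc each had a log2 change of 0.09 and Hnrnpa1 had 0.03, while Hnrnpa2b1 had −0.09, Hnrnpu −0.07 and Hnrnpm −0.03. Hnrnpa1 shares near-identical stretches with 7 other genes, so its level is uncertain. Of the 10 hnRNPs, 9 were highest within normoxia in replicate 2. Without that library, 4 of the 10 had a negative change and 6 a positive one, where with it 6 were negative and 4 positive. With all libraries, 51.8% of all genes tested had a negative change.

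The paraspeckle proteins Sfpq and Nono and the helicases Ddx5 and Ddx17 were all 4 highest in normoxia replicate 2 of the 8 libraries, and no member was called by edgeR or by DESeq2, with 0 at an unadjusted p under 0.05. Sfpq was at 156, 159, 154 and 178 CPM in hypoxia and at 149, 222, 144 and 144 CPM in normoxia. The hypoxia libraries lay above all normoxia libraries but replicate 2, so that the log2 change was −0.03 ± 0.14 (SE) with it and 0.16 without it. Ddx5 was at 962, 949, 983 and 1026 CPM in hypoxia and at 912, 1186, 973 and 997 CPM in normoxia, a log2 change of −0.05 ± 0.08 (SE) that was 0.03 without normoxia replicate 2. Ddx17 was at 618, 606, 625 and 619 CPM in hypoxia and at 616, 736, 628 and 635 CPM in normoxia, a log2 change of −0.08 ± 0.06 (SE). The groups of Ddx5 and Ddx17 overlapped, and the log2 change of Ddx17 was −0.02 without normoxia replicate 2. Nono had −0.02 ± 0.06 (SE).

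**Figure D4:**
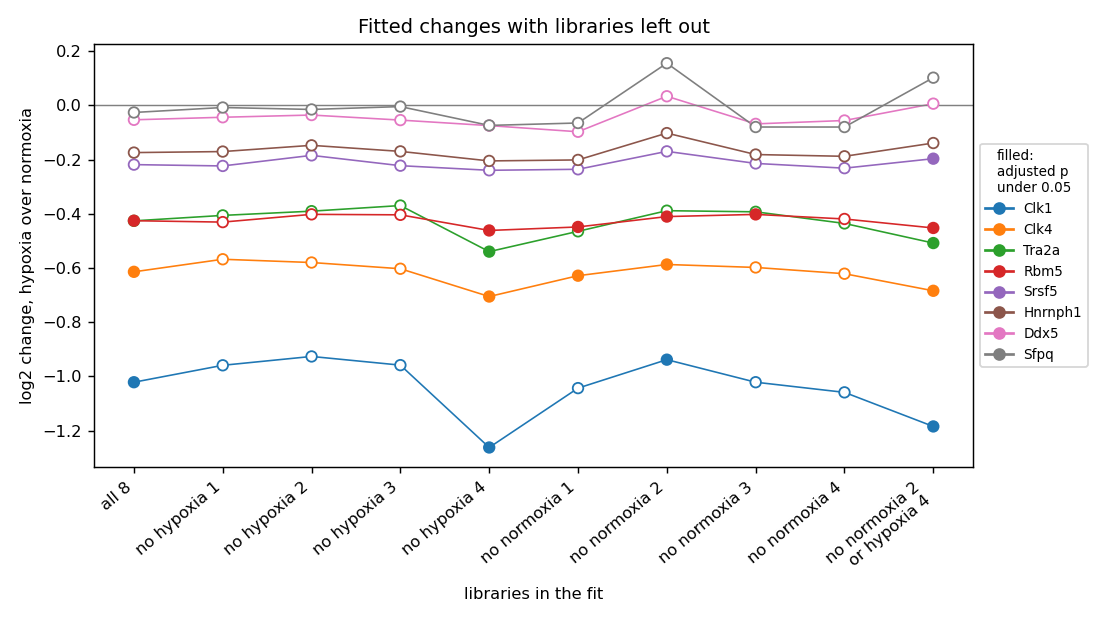
Log2 change, hypoxia over normoxia, of 8 members fitted with all 8 libraries, with each library left out, and without normoxia replicate 2 and hypoxia replicate 4 together (x axis); filled points have an adjusted p under 0.05 over all genes tested. Clk1, Clk4 and Rbm5 stay well below 0 in each fit, with Clk1 between −1.26 and −0.93, while Sfpq and Ddx5 cross 0 without normoxia replicate 2.

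The members differed widely in level once counts were divided by exon length. Ddx5 was the most abundant, at 170 ± 5.81 CPM per kb of exon in hypoxia and 176 ± 20.5 CPM per kb in normoxia (SD, n = 4 each). Next came Hnrnpa2b1, at 82.4 ± 2.43 CPM per kb in hypoxia and 87.5 ± 5.95 CPM per kb in normoxia, and Ddx17, at 80.7 ± 1.03 CPM per kb in hypoxia and 85.5 ± 7.23 CPM per kb in normoxia. Hnrnpa2b1 and Ddx17 did not differ beyond their spread. The kinases lay in the lower part of the order. Clk1 was at 8.60 CPM per kb in hypoxia and 17.5 CPM per kb in normoxia, Clk4 at 8.72 CPM per kb in hypoxia and 13.3 CPM per kb in normoxia, and Clk2 at 5.68 CPM per kb in hypoxia and 6.98 CPM per kb in normoxia. Srpk1 was the lowest member in normoxia, at 5.77 CPM per kb in hypoxia and 6.27 CPM per kb in normoxia. Exon length here is the union of all annotated exons, which understates the level of genes with many transcript forms.

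Other genes of the splicing machinery were taken from 6 lists set by function, with 131 of 132 genes passing the filter. Of these, 3 were called lower by edgeR, among them Sltm and Rsrc2, none was called higher, and 128 were not called. At an unadjusted p under 0.05, 20 were lower and 9 higher, and DESeq2 called 7 lower and 2 higher. Of all genes tested, edgeR called 1.23% lower, and 11.7% were lower and 7.63% higher at that unadjusted p. DESeq2 called 3.68% of all genes lower and 2.22% higher. The same shares stand beside the counts of each list below. The median log2 change over the 131 was 0.0048, with 62 negative and 69 positive. As with the members, normoxia replicate 2 was the highest normoxia library for 92 of the 131.

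In the list of other SR and RS-domain proteins, 2 of 30 were called lower and 0 higher by edgeR, with 10 lower and 2 higher at an unadjusted p under 0.05 and 5 lower and 0 higher by DESeq2. Sltm, an RNA-binding modulator of transcription, was at 77.1, 78.5, 75.0 and 79.6 CPM in hypoxia and at 90.9, 93.8, 88.2 and 91.8 CPM in normoxia, a log2 change of −0.23 ± 0.04 (SE) with an adjusted p of 0.0293 by edgeR. Rsrc2, an arginine and serine rich protein, was at 73.3, 68.5, 71.5 and 84.4 CPM in hypoxia and at 92.1, 102, 89.2 and 92.5 CPM in normoxia, a log2 change of −0.34 ± 0.07 (SE) with an adjusted p of 0.0484 by edgeR. Neither gene had overlapping groups. With each library left out in turn, Sltm and Rsrc2 were each called in 2 of the 8 fits (without hypoxia replicate 4 and without normoxia replicate 2), and the log2 change ran from −0.24 to −0.21 for Sltm and from −0.40 to −0.29 for Rsrc2. With all libraries, Sltm was not called with no filter on low counts (edgeR adjusted p = 0.0561) and Rsrc2 was not called with RLE size factors (edgeR adjusted p = 0.0509).

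No gene was called by edgeR in 4 of the other lists. Of 39 proteins of the snRNPs and of splice site recognition, 4 were lower and 2 higher at an unadjusted p under 0.05, and the smallest p was that of Sf3a1, a component of the U2 particle (log2 −0.29 ± 0.08, SE; edgeR adjusted p = 0.0977), which DESeq2 called lower. Of 25 neuronal and tissue-specific splicing factors, 3 were lower and 2 higher at an unadjusted p under 0.05, and Khdrbs2, a KH-domain RNA-binding protein, had the smallest p (log2 0.35 ± 0.09, SE; edgeR adjusted p = 0.0843) and was called higher by DESeq2. Of 8 other splicing kinases and related genes, 1 was lower and 1 higher at an unadjusted p under 0.05, and DESeq2 called 0. The smallest p there was that of Topors, an RS-domain ubiquitin and SUMO ligase and no kinase (log2 −0.29 ± 0.08, SE; edgeR adjusted p = 0.0981). Of 19 other hnRNPs and related RNA-binding proteins, 1 was called lower by edgeR and is not reported here. At an unadjusted p under 0.05, 1 was lower and 2 higher in that list, and DESeq2 called 1 lower and 1 higher. The higher DESeq2 call was that of Pspc1, a paraspeckle gene related to Sfpq and Nono (log2 0.25 ± 0.07, SE). Of 10 factors of nonsense-mediated decay, the pathway that removes transcripts with poison exons, 1 was lower and 0 higher at an unadjusted p under 0.05, DESeq2 called 0, and Upf3a had the smallest p (log2 −0.23 ± 0.09, SE; edgeR adjusted p = 0.198).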

How the data were processed

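Raw counts per Ensembl gene, 1 column per library, are as the authors deposited them. Trimmomatic, HISAT2 2.0.4, SAMtools, featureCounts and DESeq2 and the build mm10 are named in the submitters' processing notes. What annotation release and strand setting were used, and how reads with several matches were counted, is not given in the sources used here, so genes that overlap on opposite strands or have near-identical copies are uncertain. Each column was matched to the sample whose description holds its name, and places, exon lengths and overlaps come from GENCODE M21 (GRCm38, the assembly of mm10). Of the 45 members, 17 share exon bases with a gene on the opposite strand and 19 share a near-identical stretch (at least 100 bases at 97% identity or more between transcripts) with another gene.

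Genes were kept by filterByExpr (minimum count 10, minimum total 15), which left 17047 of 55487. Counts were scaled by TMM and tested with edgeR 4.0.16 (R 4.3.3), group being the only term, with calls at an adjusted p under 0.05. SEs were derived from the F statistic. CPM values are TMM-scaled, and changes are hypoxia over normoxia. Libraries of a group differed by more than sampling noise (chi-square per gene 4.62 to 37.3), so none was counted as a repeat. A p-value here reflects the spread among these libraries only. Intervals from counting alone were not needed at these depths.

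The members and lists were chosen with earlier results of these data known. Members were described library by library where called, where among the 3 largest absolute changes of a role, or, up to 4 a role, where the groups did not overlap, which gave 22. Other splicing genes were named where called, or else by the smallest p of a list, and 1 gene so chosen is not reported here. Alternatives were RLE scaling, total counts only, DESeq2 1.42.0, no filter, a replicate block, and libraries left out. The test was tried on simulated data.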

Additional observations from a re-analysis of the deposited data

Results flagged for a closer look

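Of 90 sets of 4 libraries (45 members in 2 groups), 10 held a library whose gap to its nearest neighbour was over 0.829 of the whole range of the group. For independent, normally distributed values, chance gives about 1 set in 20. The 90 sets share the same libraries and are not independent, so nothing is read from their number. Hypoxia replicate 4 was such a high library in Clk1 (102 CPM), Clk3 (75.9 CPM), Rbm10 (66.8 CPM) and Tardbp (264 CPM). Normoxia replicate 2 was one in Srsf4 (73.2 CPM), Srsf9 (44.3 CPM), Luc7l3 (256 CPM), Sfpq (222 CPM) and Ddx17 (736 CPM). Hypoxia replicate 1 was a low one in Srsf10 (79.9 CPM).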

How the results depend on the processing

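The median log2 change of the members stayed between −0.11 and −0.04 under all alternatives run. Counts of calls did not hold. DESeq2 called 362 higher and 600 lower genes, 8 members lower, and 2 other splicing genes higher and 7 lower. With total counts only there were 342 lower genes, 5 members lower and 1 member above normoxia in all libraries (3.84% of all genes). Without normoxia replicate 2 and hypoxia replicate 4 there were 456 higher and 739 lower genes, 8 members lower, 8 members above normoxia in all libraries (14.2% of all genes on these 6 libraries, against 5.69% on all 8), and 6 other splicing genes higher and 9 lower. Leaving out 1 library at a time gave 24 to 329 higher and 2 to 457 lower genes, 0 to 7 members lower, 0 to 4 other splicing genes higher and 0 to 4 lower, 4 to 7 members without overlap higher (6.52 to 9.98% of all genes) and 13 to 20 lower (8.49 to 12.1% of all genes), and a median of the members from −0.10 to −0.04. The number of calls depended on which library was left out. Without hypoxia replicate 4 there were 236 higher and 457 lower genes, and without normoxia replicate 2 there were 329 and 346. With all 8 libraries there were 156 and 210, and leaving out any other library gave fewer. The cause was not tested further.

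With the replicate block there were 20 higher genes and 1 lower gene, 0 members lower and 0 other splicing genes lower (edgeR adjusted p = 0.132 for Sltm and 0.151 for Rsrc2). Same-numbered libraries did not deviate together (correlations of their deviations from the group means 0.037, −0.11, 0.043 and −0.028). With so few libraries, this cannot show whether the numbers pair the mice. Of the 29 named genes, Ewsr1, Ddx5 and Sfpq changed sign without normoxia replicate 2. Leaving out 1 library at a time gave −0.0748 to 0.0086 for Ewsr1, −0.0974 to 0.033 for Ddx5 and −0.080 to 0.16 for Sfpq, and leaving out both gave 0.0062 for Ddx5 and 0.10 for Sfpq. Of 406 refits of named genes, 342 kept direction and side of the threshold, 41 lost the call, 18 gained one and 5 changed sign.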
